A study of Mus musculus with 24 samples.

Results

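Transcript levels of 8 genes of the histone H3 lysine 4 (H3K4) methylation machinery were followed in mouse embryonic stem cells: Wdr5, Ash2l, Rbbp5, Dpy30 and Hcfc1, which encode shared subunits of the methyltransferase complexes, and Kdm1a, Kdm5a and Kdm5b, which encode H3K4 demethylases. They were chosen by symbol, and all 8 were found among the 16617 genes of the deposited table. The study used 3' tag RNA sequencing of 4 lines in 2 culture conditions, with 3 independently grown replicates per group in the labels, 24 samples in all. Wild-type cells and cells labelled MLL3CD_MLL4CD (called catalytic-dead here) are of the R1 line. The cells labelled MLL3KO_MLL4fl (called floxed) and MLL3KO_MLL4KO (called knockout) have no line name, and both lack MLL3 by their labels, so the floxed cells are no wild type. MLL3 and MLL4 are the methyltransferases encoded by Kmt2c and Kmt2d. Naive cells were compared with formative cells taken 63 h after withdrawal of LIF and 2i, the cytokine and inhibitors that hold naive pluripotency. Each genotype is a line of its own, so a genotype and other differences between lines cannot be told apart.

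Methyl groups on H3K4 mark promoters and enhancers in use. They are placed by the SET1 and MLL family of enzymes, each of which works on a common base of WDR5, RBBP5, ASH2L and DPY30, while HCFC1 joins only some of the complexes. KDM1A (LSD1) removes mono- and dimethyl groups within the CoREST complex, and the KDM5 enzymes remove trimethyl groups. In embryonic stem cells WDR5 is known for a role in self-renewal and DPY30 for a role in differentiation.

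The table held 1 value per gene and group, the authors' average of log2 CPM, in which a count is divided by its library's total and put on a fixed scale. Library counts could be worked back from these averages for genes that are not too abundant. The 23 libraries found this way held 4808564 to 15425959 counts, and the naive wild-type column averaged 2 of them. In the formative knockout column 4 libraries were averaged, and 1 of them was also part of the formative catalytic-dead column. Across 3958 genes this library had a mean correlation of 0.741 with the other formative catalytic-dead libraries and of 0.199 with the formative knockout libraries. The shared library was taken out of the formative knockout mean because that column held more libraries than its labels, and the correlations were computed after this choice. The resulting mean is an approximation for all members but Rbbp5: a value of the shared library 0.5 log2 away from the one assumed moves that mean by 0.167 log2. Most members were too abundant for library values. All 8 had them in naive wild-type cells, Rbbp5 also in the 4 formative groups and Hcfc1 also in naive catalytic-dead cells. Other levels are group means without an error and were not tested. For scale, genes of 16 to 64 CPM had a median SD between libraries of 0.145 to 0.248 log2 per group, and a 95th percentile of 0.331 to 0.657. This scale is rough, since most member means lie above that band and only 74.5% to 99.9% of its genes had library values. In naive wild-type cells the members' own SDs ran from 0.07 (Wdr5) to 0.37 log2 (Dpy30), against a median of 0.19 in the band.

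The 12 naive markers summed to 2884 to 3404 CPM in the naive and 681 to 848 CPM in the formative groups, and the 9 formative markers to 116 to 246 and 1679 to 2675 CPM. Dnmt3b was the highest formative marker in every group, at 691 CPM in formative knockout and 1722 in formative wild-type cells. Formative knockout cells also held less Fgf8 (0.82 against 34.8 CPM in formative wild-type cells), Sox3 (9.60 against 77.1) and Dnmt3a (85.9 against 221). Pou3f1 (613 against 335) and Lef1 (59.1 against 22.0) went the other way, and Otx2, Fgf5 and Foxd3 differed little from wild type. Against formative floxed cells, however, Otx2 (154 against 91.8 CPM), Fgf5 (58.7 against 20.3) and Foxd3 (45.5 against 18.6) were higher in formative knockout cells. The other formative markers went in the same direction against floxed as against wild-type cells. Of the shared pluripotency markers, Sox2 stood at 93.9 to 272 CPM, Sall4 at 119 to 222 and Lin28a at 46.1 to 448 over the groups. Only Pou5f1 had low values in all groups (5.58 to 9.54 CPM). Whether these reflect its transcript level or the way its 3' tags were counted was not tested. Feeder fibroblast markers, of which 5 of 8 were in the table, summed to 3.21 to 27.7 CPM. Primitive endoderm markers (3 of 6 in the table) summed to 4.81 CPM in naive wild-type and 3.76 in naive floxed cells but to 26.8 in naive knockout and 52.1 in naive catalytic-dead cells, nearly all of it Dab2, while Gata4 and Gata6 reached at most 2.30 CPM. Trophoblast markers (5 of 6) summed to 18.2, 33.1, 64.4 and 59.1 CPM in the same order and to 57.2 to 81.8 CPM in the formative groups. The keratins Krt18 and Krt8 stood at 5.75 and 4.38 CPM in naive wild-type and at 44.5 and 14.3 in naive knockout cells. Eomes went the other way, from 6.83 CPM in naive wild-type to 1.81 in naive knockout cells, and Cdx2 and Hand1 reached at most 3.42 CPM in any group. Neuroectoderm markers (all 4) summed to 19.7 to 32.7 CPM in the naive and 52.2 to 103 CPM in the formative groups, highest in knockout cells, where Zic1 stood at 20.7 CPM against at most 1.82 CPM in the other formative groups. Mesendoderm markers summed to 4.42 to 13.5 CPM. The part of these markers in the results was not tested. The targeted genes were read at their 3' ends, so their values test neither deletions nor catalytic changes. Kmt2c stood at 48.8 CPM in naive wild-type, 23.4 in floxed, 22.0 in knockout and 67.4 in catalytic-dead cells. Kmt2d stood at 29.0, 28.8, 17.6 and 27.6 CPM in the same order.

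The stretch of 240 bases before the RefSeq start (GRCm38.p6) is shown for Wdr5 and Rbbp5, which were both lower in formative cells of every line, and for Kdm5b, whose direction differed between lines. Capitals mark CpG dinucleotides, the sites of DNA methylation. Wdr5 is read on the + strand at chr2:27514897-27515136, Rbbp5 on the + strand at chr1:132477117-132477356 and Kdm5b on the + strand at chr1:134559928-134560167.
Wdr5: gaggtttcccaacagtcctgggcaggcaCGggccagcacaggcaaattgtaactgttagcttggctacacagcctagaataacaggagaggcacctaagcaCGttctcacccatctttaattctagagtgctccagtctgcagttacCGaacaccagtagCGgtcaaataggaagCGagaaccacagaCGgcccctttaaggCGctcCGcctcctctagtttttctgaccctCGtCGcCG
Rbbp5: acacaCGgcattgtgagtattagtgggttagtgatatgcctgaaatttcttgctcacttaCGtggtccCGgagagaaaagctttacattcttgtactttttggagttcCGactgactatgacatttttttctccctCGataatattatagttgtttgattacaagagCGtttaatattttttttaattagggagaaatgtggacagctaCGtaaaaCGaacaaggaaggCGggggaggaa
Kdm5b: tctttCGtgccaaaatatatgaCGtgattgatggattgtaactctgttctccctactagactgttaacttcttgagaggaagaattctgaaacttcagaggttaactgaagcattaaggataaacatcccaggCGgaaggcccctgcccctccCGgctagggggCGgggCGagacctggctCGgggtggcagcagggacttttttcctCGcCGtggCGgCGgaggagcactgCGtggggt
The Wdr5 stretch holds 11 CpG, that of Rbbp5 holds 9 and that of Kdm5b holds 12, against a median of 5 over 32851 promoters. In the same order 68.0%, 63.6% and 70.2% of promoters hold no more CpG, so these numbers are not unusual. Sequences were found for 6 of the 8 members. Hcfc1 had 18 CpG, Kdm1a 19 and Dpy30 1. Searched on both strands, the GC box (GGGCGG, in 31.3% of promoters) occurred in Kdm5b and Hcfc1, the CCAAT box (CCAAT, in 33.0%) in Dpy30 and Kdm1a, and the ETS motif (CCGGAAG, in 6.20%) in Hcfc1. No member held the E-box (CACGTG, in 5.69%), the STAT motif (TTCNNNGAA, in 6.77%) or the ESRRB motif (TCAAGGTCA, in 0.381%). A match here is a run of letters, not a bound site.

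Rbbp5, a scaffold subunit beside the catalytic SET domain (chromosome 1, 132477365 to 132505659 of GRCm38), was lower in formative than in naive cells of all 4 lines. Its level was 117 and 146 CPM in the naive wild-type libraries. In formative wild-type libraries the recovered values were 52.6, 90.2 and 54.8 CPM, of which 1 stood above the rest. The search took these values only within 0.5 log2 of the group mean of 63.8 CPM, and the highest lies at that limit. Higher values could not have been found, so the lack of overlap with the naive libraries was fixed by the search. How many of all genes have groups that do not overlap was not counted. The formative values come from a search in which 0.210 solutions were expected by chance, so they are not certain. Rbbp5 fell by 1.03 log2 (SE 0.25, limma adjusted p = 0.00270, 3 against 2 libraries). In this comparison 11.2% of tested genes fell and 19.0% rose. The call was lost without either naive wild-type library, with adjusted p = 0.0740 and 0.215, where the remaining library was assumed to vary like the other groups. The group means of the other 3 lines (floxed, knockout, catalytic-dead) went from 138 to 50.5, from 164 to 70.1 and from 144 to 52.1 CPM. These are differences of -1.46, -1.22 and -1.47 log2, without a test since the naive libraries of those lines had no values for Rbbp5.

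Within the formative state the floxed libraries had 52.4, 40.8 and 60.1 CPM of Rbbp5, and the knockout libraries 68.8, 71.3 and 70.3 CPM. All 3 knockout values lay above the floxed ones, though how many of all genes show this was not counted. Rbbp5 rose by 0.47 log2 in knockout against floxed cells (SE 0.17, limma adjusted p = 0.0437), where 12.6% of tested genes rose. This call stood close to the threshold and was lost in 9 of 14 alternatives, among them size factors (adjusted p = 0.0846), no weights (0.0972) and the column as deposited (0.333). Leaving out floxed library a or b or any 1 of the knockout libraries also ended it (adjusted p = 0.0639 to 0.180). Formative catalytic-dead libraries had 50.2, 59.2 and 47.6 CPM, within or near the range of wild type. Neither catalytic-dead (-0.29, adjusted p = 0.332) nor floxed cells (-0.34, adjusted p = 0.247) passed the limma test against wild type. The formative values were found in search windows of 0.5 to 0.7 log2 around the group mean, which favours libraries that lie close together, so their SD may be understated. Per group 0.162 to 0.229 solutions were expected by chance in these windows, so the library values and the tests on them are not certain.

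**Figure D1:**
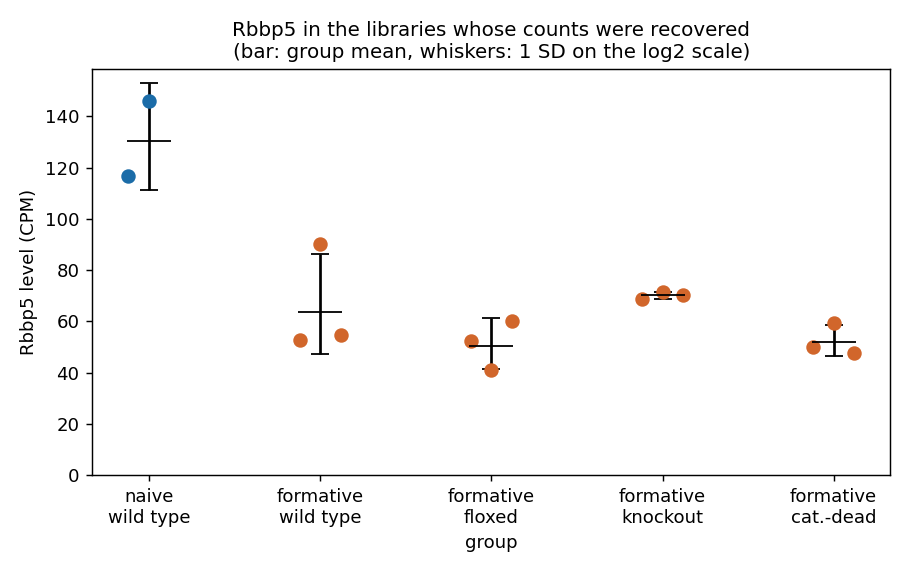
Rbbp5 in CPM (vertical axis) in each library with a recovered count, for naive wild-type and the 4 formative groups; horizontal bars are group means and whiskers 1 SD on the log2 scale. Both naive wild-type libraries (117 and 146 CPM) lie above every formative library, of which the highest is 90.2 CPM. Formative values were searched only within 0.5 to 0.7 log2 of the group mean, so this order was fixed by the search.

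Wdr5, the subunit that holds the catalytic enzyme to the core (chromosome 2, 27515157 to 27536535), had its highest level in naive wild-type cells, at 478 and 513 CPM in the 2 libraries. The naive floxed, catalytic-dead and knockout means were 335, 360 and 278 CPM. In formative cells the 4 lines lay close together, at 216 CPM in wild-type, 203 in floxed, 229 in knockout and 202 in catalytic-dead cells. The group means were thus spread more widely in the naive than in the formative state. The differences from naive to formative were -1.19 log2 in wild-type, -0.72 in floxed, -0.83 in catalytic-dead and -0.28 in knockout cells. Naive floxed cells were 0.56 log2 below naive wild type, just short of 1.5-fold. The related gene Wdr5b, a copy by name, reached at most 6.35 CPM.

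Ash2l, which with DPY30 supports the activity of the core (chromosome 8, 25815996 to 25847694), split the lines in the opposite way. Naive levels were 745 and 886 CPM in the wild-type libraries and 679, 678 and 638 CPM as means of floxed, knockout and catalytic-dead cells. Formative levels were 374 CPM in wild-type and 312 in floxed cells, but 619 in knockout and 565 in catalytic-dead cells. Wild-type and floxed cells each differed by -1.12 log2 between states, against -0.13 in the knockout and -0.18 in the catalytic-dead line. In formative cells Ash2l was thus 0.99 log2 higher in knockout than in floxed cells and 0.59 higher in catalytic-dead than in wild-type cells. With the shared library assumed 0.5 log2 away in either direction, the formative knockout mean ran from 551 to 694 CPM, above the wild-type and floxed means.

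Dpy30, a small dimeric subunit that binds ASH2L (chromosome 17, 74299474 to 74323944), varied between lines more than between states. Its naive wild-type libraries held 230 and 331 CPM, an SD of 0.37 log2. Naive means were 353 CPM in floxed, 377 in catalytic-dead and 215 in knockout cells. Formative means were 234 CPM in wild-type, 337 in floxed, 338 in catalytic-dead and 255 in knockout cells. Knockout cells were 0.71 log2 below floxed cells in the naive state and 0.40 below in the formative state. Catalytic-dead cells were 0.45 and 0.53 above wild type, of which the first is close to the spread between the 2 wild-type libraries.

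Hcfc1, a large cofactor that joins the SET1 and MLL1/2 complexes to transcription factors (chromosome X, 73942792 to 73966357), had the narrowest range of the 8 genes. Its group means ran from 85.7 CPM in formative floxed to 122 CPM in formative wild-type cells, a span of 1.43-fold. Naive wild-type libraries held 109 and 94.9 CPM, and naive catalytic-dead libraries 120, 102 and 99.5 CPM. These groups overlapped, and the difference of 0.07 log2 (SE 0.20, limma adjusted p = 0.885) did not pass. Naive floxed and knockout means were 105 and 98.3 CPM. Formative knockout and catalytic-dead means were 119 and 93.0 CPM.

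**Figure D2:**
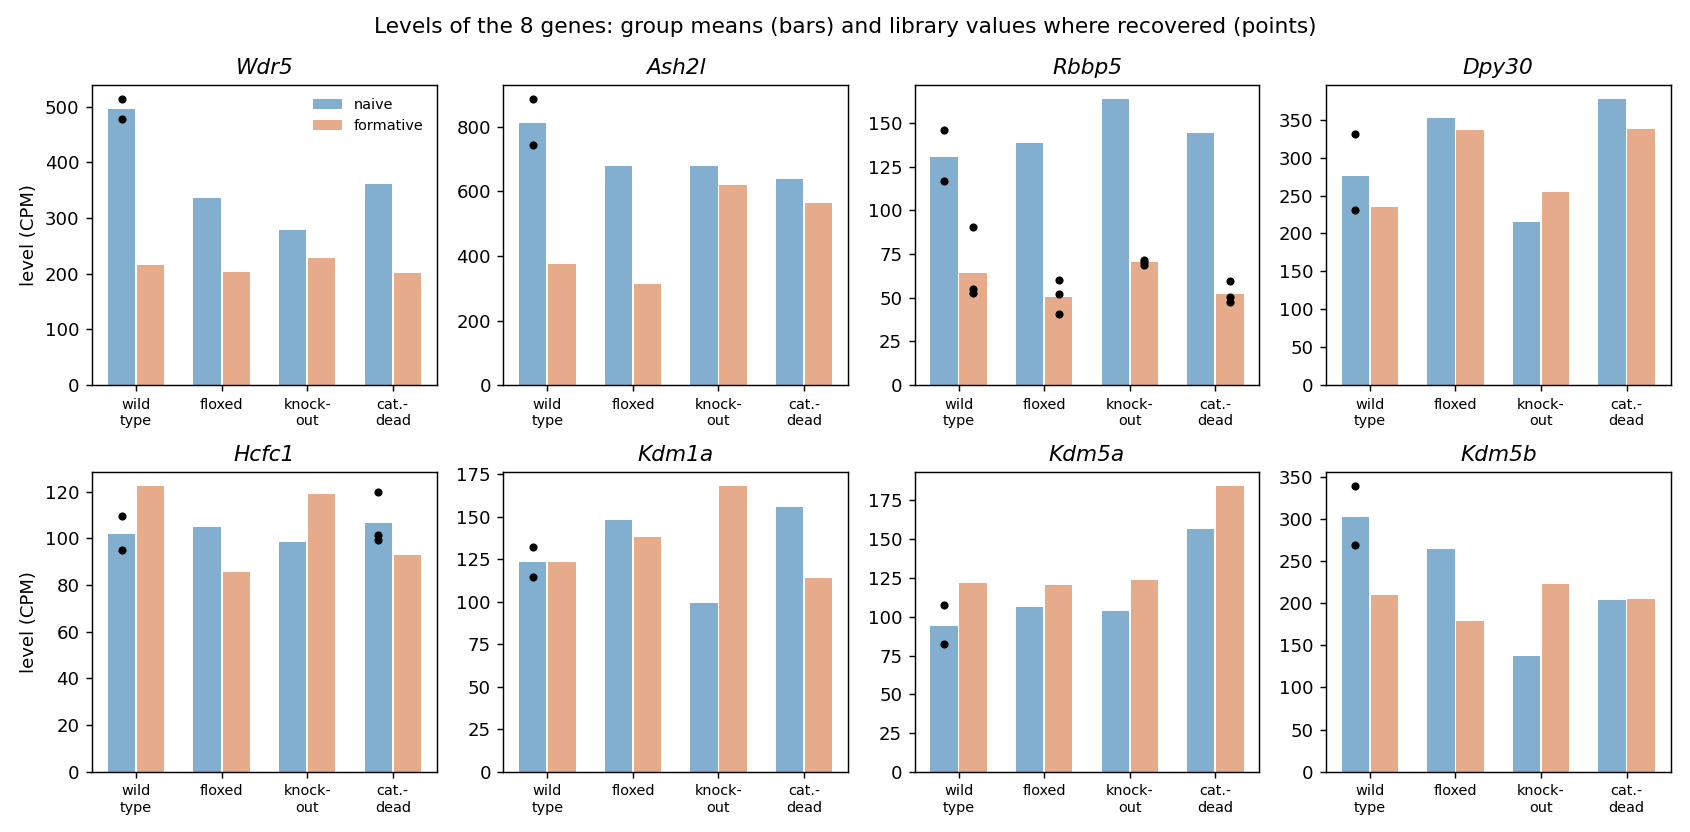
Level in CPM (vertical axis, from 0) of each of the 8 genes in the 4 lines, naive in blue and formative in orange; bars are group means and points are library values where they were recovered. Rbbp5 and Wdr5 have the higher bar in the naive state in all 4 lines, Ash2l has nearly level bars in knockout and catalytic-dead cells, and Kdm5b is lowest in naive knockout cells at 137 CPM.

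Kdm5b, a trimethyl-H3K4 demethylase that is abundant in embryonic stem cells (chromosome 1, 134560171 to 134635285), was lowest in naive knockout cells. Naive wild-type libraries held 339 and 269 CPM, and the naive floxed, catalytic-dead and knockout means were 264, 204 and 137 CPM. Naive knockout cells were 0.94 log2 below naive floxed cells. Formative means lay at 210 CPM in wild-type, 179 in floxed, 223 in knockout and 205 in catalytic-dead cells. The difference between states was -0.52 log2 in wild-type and -0.56 in floxed cells, 0.01 in catalytic-dead and 0.70 in knockout cells. With size factors the knockout value was 0.43, of the same sign but short of 1.5-fold.

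Kdm1a, the flavin-dependent demethylase of CoREST (chromosome 4, 136550540 to 136602723), stood at 115 and 132 CPM in the naive wild-type libraries and at 123 CPM as the formative wild-type mean. In the floxed line it was 148 CPM naive and 138 CPM formative. Knockout cells held 99.4 CPM in the naive state and 168 CPM in the formative state, the lowest and highest of the 8 means. That order depends on the scale, since with size factors the formative knockout mean was 154 CPM, below 159 in naive floxed cells, and the naive knockout mean was 110 CPM, above 106 in formative catalytic-dead cells. As deposited the formative knockout mean was 153 CPM, below 156 in naive catalytic-dead cells. The difference between states was 0.76 log2 in knockout cells (0.49 with size factors), against 0.00, -0.10 and -0.45 in wild-type, floxed and catalytic-dead cells. The 3' end of Kdm1a lies within 1 kb of Luzp1 on the other strand, which reached 126 CPM. Whether strand was used in counting is not stated in these sources, and without it reads of the 2 genes cannot be told apart.

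Kdm5a, the second KDM5 enzyme of the set (chromosome 6, 120364124 to 120444574), was highest in the catalytic-dead line in both states. Naive wild-type libraries held 108 and 82.5 CPM, and naive means were 106 CPM in floxed, 104 in knockout and 157 in catalytic-dead cells. Formative means were 122, 121 and 123 CPM in wild-type, floxed and knockout cells and 184 CPM in catalytic-dead cells. Catalytic-dead cells were 0.73 log2 above wild type in the naive and 0.60 above in the formative state (0.59 and 0.52 with size factors). The naive catalytic-dead mean was above both naive wild-type libraries. The other 3 lines had nearly the same level within each state.

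**Figure D3:**
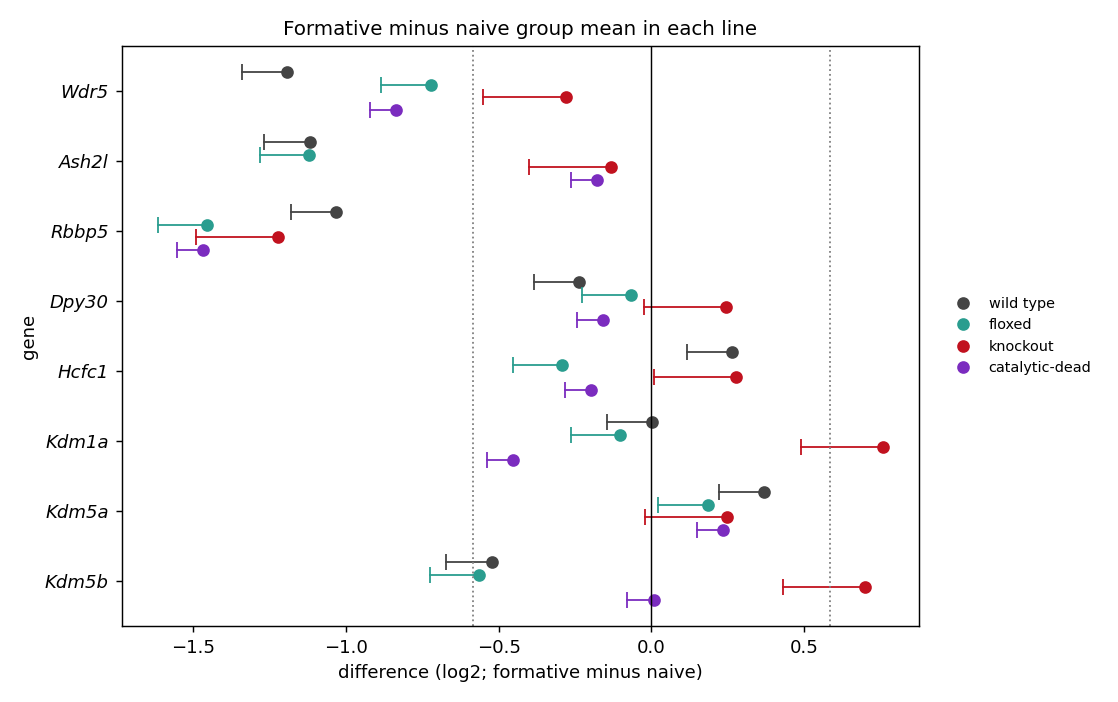
Formative minus naive group mean (log2, horizontal axis) of the 8 genes in 4 lines; dots use library totals, ticks joined to them use size factors, and dotted lines mark 1.5-fold. Rbbp5 is below the lower dotted line in all 4 lines (-1.03 to -1.47), while Kdm1a and Kdm5b are above the upper one only in knockout cells and only with library totals.

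Counted over the set, 3 of 8 members (Wdr5, Ash2l and Rbbp5) were past 1.5-fold on the lower side in formative wild-type cells and none on the higher side. Of all 4715 genes with a mean of at least 32 CPM, 12.6% were lower and 13.5% higher by that much. The members' median was -0.38 log2, against 0.05 for these genes. In floxed cells the same 3 genes were lower, where the share of all genes was 13.9%. With size factors Kdm5b was past 1.5-fold as well, at -0.67 log2 in wild-type and -0.73 in floxed cells, which makes 4 of 8 in each. In knockout cells Rbbp5 was lower (9.02% of all genes) and Kdm1a and Kdm5b were higher (15.1%). In catalytic-dead cells Wdr5 and Rbbp5 were lower (13.4%) and none was higher (9.34%). Size factors moved the transitions by -0.15 log2 in wild-type, -0.16 in floxed, -0.27 in knockout and -0.09 in catalytic-dead cells. They also evened out the directions of the genes that passed the limma test, with 54.7% instead of 66.5% of calls higher in the floxed and 56.1% instead of 77.3% in the knockout transition.

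The change between states differed between knockout and floxed cells by 1.26 log2 for Kdm5b, 0.99 for Ash2l and 0.86 for Kdm1a. All 8 values of this kind were above 0, the lowest being 0.06 for Kdm5a, which turned to -0.04 with size factors. The share of all genes above 0 was not counted. The members' median was 0.51 log2, against 0.05 for genes of at least 32 CPM. Size factors shift all genes by -0.11 here, and the 8 values rest on the same group columns. By 1.5-fold 3 members passed, where 13.2% of 4893 genes were higher and 8.30% lower. None of the 3 could be tested. Of the genes tested for this difference 5.77% were higher and 3.52% lower, and size factors lowered the share of higher calls from 62.1% to 51.7%. Between catalytic-dead and wild-type cells only Ash2l passed 1.5-fold (0.94 log2), where 6.77% of genes were higher and 12.6% lower. With size factors Kdm5b passed as well, at 0.59. Of tested genes 1.82% passed on the higher and 1.84% on the lower side.

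Within a state, no member passed 1.5-fold between floxed and wild-type cells, where 3.65% of genes were higher and 3.63% lower in naive and 5.65% and 5.90% in formative cells. With size factors Wdr5 passed in naive cells, at -0.59 log2. Between knockout and floxed cells Kdm5b and Dpy30 were lower in the naive state (7.06% of genes) and none was higher (6.52%), and Ash2l was higher in the formative state (11.8%). Between catalytic-dead and wild-type cells Kdm5a was higher in the naive state (12.1%), and Kdm5a and Ash2l in the formative state (6.70%). None was lower (6.59% and 5.60%). When library b of the naive wild type was left out, Kdm5a was at 0.54 in naive cells, short of 1.5-fold, and Dpy30 (0.71) and Kdm5b (-0.73) passed instead. Both formative values lay just past 1.5-fold, and neither passed with size factors (0.52 and 0.51). In naive cells size factors added Kdm5b (-0.70) and Wdr5 (-0.60) on the lower side, where they shift all genes by -0.14. The comparisons with wild type share the wild-type libraries, and those of the knockout share the floxed libraries.

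**Figure D4:**
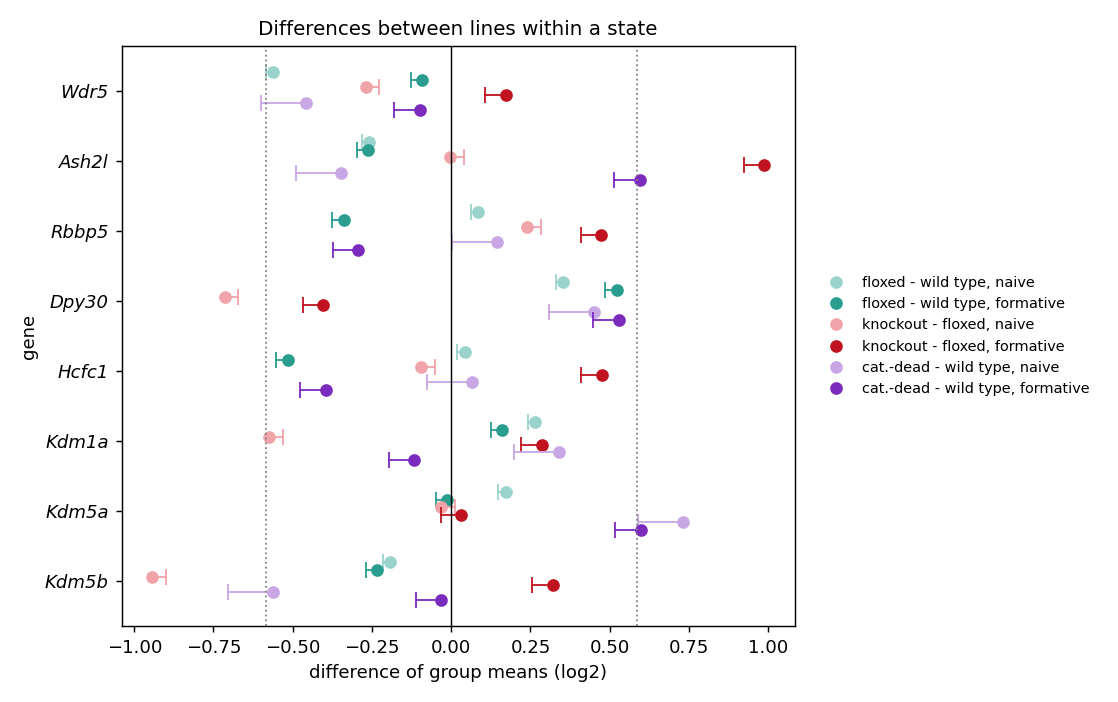
Difference of group means (log2, horizontal axis) of the 8 genes between lines, pale for naive and dark for formative cells; dots use library totals, ticks joined to them use size factors, and dotted lines mark 1.5-fold. Kdm5b (-0.94) and Dpy30 (-0.71) in naive knockout cells and Ash2l (0.99) in formative knockout cells lie farthest from 0 among the comparisons with floxed cells.

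Wdr5 correlated with Rbbp5 at r = 0.81 and with Ash2l at 0.74 over the 8 group means, and Rbbp5 with Ash2l at 0.75. These are descriptions of 8 means that share library totals. Dpy30 and Hcfc1 did not follow them (r between -0.08 and 0.17). Over the whole table, genes of at least 10 CPM in 1 group were compared, with a lower but no upper limit on their span. The pattern closest to Wdr5 was that of Ly75 (r = 0.997), then Pdhx (0.983) and Mylpf (0.974), which ran from 54.5 to 816 CPM. For Rbbp5 it was Bet1l (0.988), Sp2 (0.984) and Zbtb45 (0.984). For Ash2l it was Gdf3, Nipsnap3b and Fiz1 (0.949 to 0.950), for Dpy30 Chek1, Rhobtb2 and Gins1 (0.941 to 0.959), and for Hcfc1 Vps4b, Sppl3 and Crebbp (0.931 to 0.949). For Kdm1a it was Iscu, Lats2 and Syncrip (0.899 to 0.970), for Kdm5a Mad2l1, Rad18 and Tmem106b (0.962 to 0.968), and for Kdm5b Gm17322, Zfp518b and Gm11407 (0.938 to 0.961).

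Around the members, 41 genes of the same machinery were taken as lists, of which 40 were in the table: the methyltransferases, their complex-specific partners, other H3K4 demethylases, CoREST partners, HCFC1 partners, and subunits of the NSL and ATAC complexes that also hold WDR5. The lists were chosen with earlier results of these data known, so their counts are descriptions. In formative knockout against floxed cells 9 of the 25 tested rose and none fell, where 12.6% of all tested genes rose and 7.48% of them fell. With size factors 55.7% instead of 62.8% of all calls in this comparison were higher. The median of the 40 was 0.15 log2, against 0.10 for all genes of at least 32 CPM. Setd1b, a SET1 methyltransferase, held 34.0, 32 and 33.0 CPM in the floxed and 68.1, 58.3 and 72.6 CPM in the knockout libraries. It rose by 1.0 log2 (SE 0.15, limma adjusted p = 1.25e-05). Rcor1, the CoREST scaffold that binds KDM1A, held 42.2, 41.3 and 35.5 CPM in floxed and 68.1, 76.4 and 82.1 CPM in knockout libraries. It rose by 0.93 (adjusted p = 1.04e-05). Neither gene's groups overlapped, though how many of all genes show this here was not counted.

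Hcfc2, a relative of HCFC1, rose by 0.93 in the same comparison, but not with the column as deposited (adjusted p = 0.0826). Ncoa6, a coactivator of the MLL3/4 complexes, rose by 0.86, the ATAC subunit Yeats2 by 0.69 and the demethylase Kdm5c by 0.62. Hcfc1r1 (0.46), Kansl1 (0.46) and Cxxc1 (0.45) made up the 9. Each of these 3 calls was lost in 4 to 8 of 14 alternatives, the column as deposited among them. In the naive state 23 list genes were tested, of which 1 rose and 2 fell (8.33% and 9.52% over all tested). Rcor3, a paralog of Rcor1, rose by 0.78 (adjusted p = 0.0364), a call lost in 5 of 15 alternatives. The demethylase Kdm2b fell from 27.3, 21.1 and 23.0 CPM to 13.4, 9.61 and 11.5 CPM, by 1.06 log2 (adjusted p = 0.00189), and Kmt2d fell by 0.71 (adjusted p = 0.00892). The Kmt2d call was lost without floxed library a (adjusted p = 0.0850) or c (0.158).

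**Figure D5:**
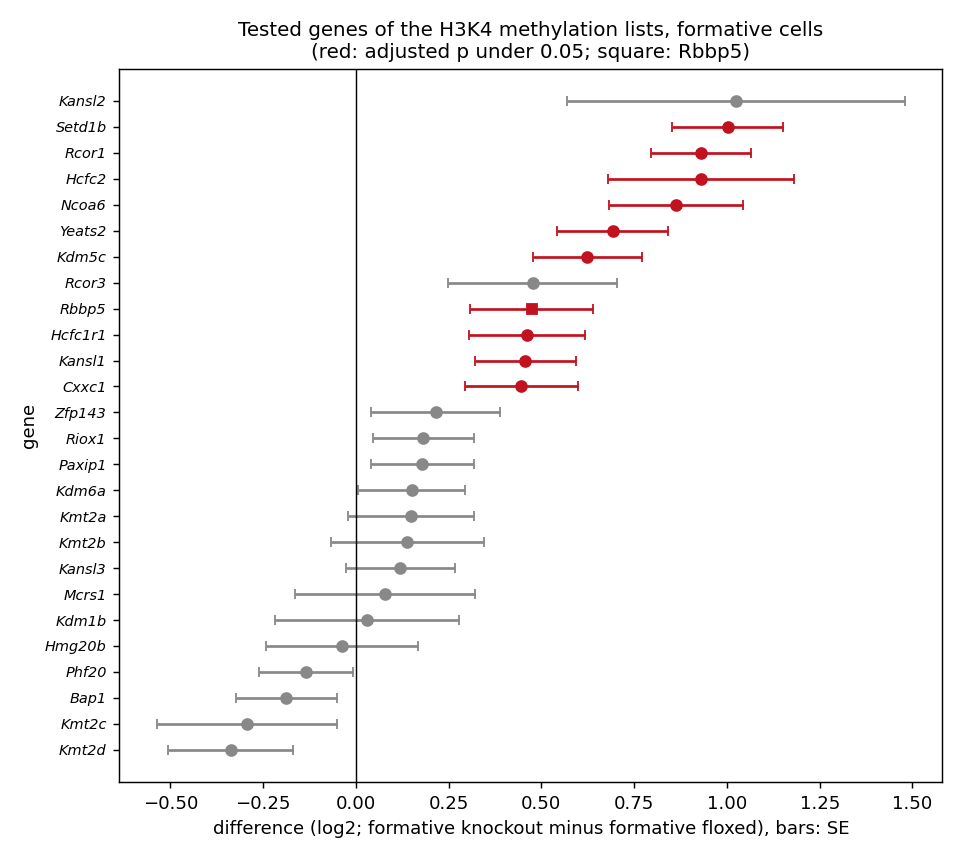
Difference in log2 (horizontal axis, bars are SE) between formative knockout and floxed cells for the 26 tested genes of the lists and members; red marks limma adjusted p under 0.05. All 10 red genes, Rbbp5 (square) among them, lie to the right of 0, and Kmt2c and Kmt2d have the lowest values without passing.

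Between states, Hcfc2 fell in all 4 lines, by 1.25 log2 in wild-type, 1.10 in floxed, 0.75 in knockout and 1.78 in catalytic-dead cells (highest adjusted p = 0.00232), and no alternative ended a call. In wild-type cells 3 of 24 tested list genes rose and 2 fell (19.0% and 11.2% of all tested genes). The rises were those of Yeats2 (0.79), Kansl1 (0.66) and Kdm6a (0.63), an H3K27 demethylase of the MLL3/4 complexes. With size factors Kansl1 (adjusted p = 0.0863) and Kdm6a (0.136) did not pass, and leaving out either naive wild-type library ended all 3 calls. The NSL subunit Phf20 fell by 0.95, but not when library a of the naive wild type was left out (adjusted p = 0.137).

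In floxed cells 2 of 22 rose and 4 fell (20.9% and 10.5%). Setd1b fell by 1.04 and Hcfc1r1 by 0.73 under all alternatives run, while the fall of Kdm5c (0.47) was lost in 6 of 14. The CoREST partner Phf21a (0.62) and the deubiquitinase Bap1 (0.53) rose, and neither passed with size factors (adjusted p = 0.0647 and 0.128). In knockout cells 5 of 25 rose and 1, Hcfc2, fell (26.2% and 7.68%). The rises were those of Kdm6a (0.61), Yeats2 (0.59), Kansl1 (0.49), Bap1 (0.46) and Kdm5c (0.40), and none of the 5 passed with size factors (adjusted p = 0.0621 to 0.472). In catalytic-dead cells 1 rose and 7 fell of 25 (20% and 13.6%). Ncoa6 fell by 1.19 and Kmt2c by 0.93, and with Hcfc2 these kept their calls under all alternatives run. The falls of Hmg20b (0.54), Kmt2d (0.44), Hcfc1r1 (0.43) and Setd1b (0.40) were each lost in 4 to 7 of 14 alternatives, and the rise of Kdm6a (0.43) in 6, size factors among them.

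Against wild type, 2 list genes of 20 fell in formative catalytic-dead cells, where 4.35% of all tested genes fell and 5.70% rose. With size factors 44.1% instead of 56.7% of the calls there were higher, and 40.7% instead of 59.7% in naive cells. They were Kmt2d (-0.81, limma adjusted p = 0.00149) and Men1, the menin subunit of MLL1/2 complexes (-0.54, adjusted p = 0.00291), the second not without catalytic-dead library c (adjusted p = 0.0613). In naive catalytic-dead cells 2 of 32 rose (6.27% of all, with 4.23% falling), Kansl1 and Hcfc2, and each call was lost in 5 alternatives. In naive floxed cells Hdac1, a deacetylase of CoREST, was the one list gene of 27 to pass (1.30% of all tested genes rose and 2.11% fell). Its libraries held 10.5 and 12.8 CPM in wild-type and 72.2, 66.3 and 67.7 CPM in floxed cells, a rise of 2.57 log2 (SE 0.25, adjusted p = 1.74e-07). In formative floxed cells only Kdm5c passed, lower by -0.57 (adjusted p = 0.0142, of 20 tested, where 5.46% of all fell and 4.51% rose), and it did not pass without wild-type library a (adjusted p = 0.0986) or floxed library c (0.0907).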

How the data were processed

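RNA of 24 samples was sequenced as 3' tags. Per the labels' protocols, 200 ng of total RNA was used per library and reads were single-end of 50 bases. Per the submitters' processing notes, cutadapt 2.5, STAR, featureCounts of Subread 1.6.4, FastQC 0.11.8 and the mouse build mm10 were used. The deposited table gives log2 CPM values with a prior count of 2, averaged by the authors per group, as its values show. It was read through group columns, with the conditional column taken as the floxed line.

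Library totals were solved from the averages (within 0.042 of whole numbers, 234513119 counts in all), and counts were searched in windows of 4 to 0.4 log2, accepted where 1 solution existed and at most 0.3 were expected by chance; 10222 genes were recovered in all groups. A further 6812462 counts belong to a library that no column averages. limma 3.58.1 (R 4.3.3) was fitted to 8 groups with weights from a lowess trend (span 0.3), over genes with at least 10 counts at the median library size in 3 libraries (16539 genes). Passing means a Benjamini-Hochberg adjusted p under 0.05. On simulated counts the test called more unchanged genes than the nominal rate, mostly at low and middle counts, so calls with an adjusted p close to 0.05 are less certain than stated, and library totals were not found in most groups there, though none found was wrong. An earlier simulation that gave each group of a gene its own SD was replaced, after it gave many false calls, because the residuals of the real libraries are spread over groups as 1 variance per gene would spread them.

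All 8 members were named in every comparison; of each list up to 4 genes past the threshold with the largest difference; and for each member the 3 genes of highest correlation. Members and lists were chosen with earlier results of these data known. Alternatives were size factors (median of ratios), no weights, groups of the contrast alone, other filters, priors of 0.5 and 5, a chance limit of 0.1, the formative knockout column as deposited and leaving out each library; those on the value of the shared library were chosen after seeing the data.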

Additional observations from a re-analysis of the deposited data

Results flagged for a closer look

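For 2 genes of the wider H3K4 lists the change from naive to formative differed between knockout and floxed cells by a test of that difference itself. For Setd1b the knockout change exceeded the floxed change by 1.33 log2 (SE 0.22, limma adjusted p = 1.85e-04), with a fall of 1.04 in floxed cells and a value of 0.29 (adjusted p = 0.0870) in knockout cells, and all 20 alternatives kept the call (adjusted p up to 0.00768). For Kdm5c the difference was 0.88 log2 (adjusted p = 0.0107, 0.00236 to 0.0700 over 20 alternatives), and the call was lost without naive floxed library a (0.80, adjusted p = 0.0555) and without library c (0.86, adjusted p = 0.0700). No member could be tested this way.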

How the results depend on the processing

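No paired analysis was possible because the recovered libraries carry no replicate number, so no replicate block could be fitted. Most members were too abundant for library values, so most of their differences have no error. The number of members whose levels span at least 1 log2 was 4 under all alternatives run. With size factors the count of members past 1.5-fold was 4 instead of 3 in the wild-type and floxed transitions, 1 instead of 3 in the knockout transition, 1 instead of 0 in naive floxed, 3 instead of 1 in naive catalytic-dead and 0 instead of 2 in formative catalytic-dead cells, and 2 instead of 1 for the difference of the catalytic-dead and wild-type transitions. Without either naive wild-type library 1 member passed in naive floxed cells. Without library b 4 passed in the wild-type transition, 2 in naive catalytic-dead cells (1 without library a) and 3 in the difference of the catalytic-dead and wild-type transitions (1 without library a). With the shared library 0.5 log2 higher, 2 members passed in the knockout transition. With it 0.5 log2 lower, 2 passed in formative knockout against floxed cells and 5 in the difference of those transitions. With a chance limit of 0.1 Rbbp5 had no library values in the formative groups, and fewer genes were tested.

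The number of genes called fell with that limit from 3830 to 2443 in the floxed transition, 4259 to 2758 in the catalytic-dead transition, 1216 to 626 in formative floxed against wild-type, 2210 to 1462 and 2360 to 1291 in naive and formative knockout against floxed, 1463 to 964 and 1249 to 577 in naive and formative catalytic-dead against wild-type cells, and 998 to 558 and 436 to 234 for the differences of transitions. Naive floxed against wild-type cells gave 458 calls, 702 without weights and 147 with those groups alone. Naive catalytic-dead cells gave 612 with those groups alone. The formative knockout column as deposited gave 1139 calls in place of 2360. Leaving out 1 library at a time gave 273 to 628 calls in naive and 723 to 1346 in formative floxed against wild type, 1385 to 2517 in naive knockout against floxed, 720 to 1598 in naive and 680 to 1395 in formative catalytic-dead against wild type, and 651 to 1325 and 263 to 532 for the differences of transitions, and the cause was not tested. Counts moved by over 1.5 times without naive floxed library c, formative wild-type library a, formative catalytic-dead library c, either naive wild-type library or naive catalytic-dead library b or c. The naive catalytic-dead value of Hcfc1 changed sign with size factors (-0.076) and ran from -0.037 to 0.17 when 1 library was left out, and passed no test. Calls of single named genes were lost in 120 combinations of gene, comparison and setting, and the cause was not tested.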

Other observations

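Hdac1 differed between lines rather than between states, with the R1 cells low and the cells without a line name high. The latter both lack MLL3 by their labels, so line and loss of MLL3 cannot be told apart here. The R1 cells stood at 11.6 CPM in naive and 15.1 in formative wild-type cells and at 15.7 and 15.8 in the catalytic-dead line. The floxed cells stood at 68.7 and 62.5 CPM and the knockout cells at 66.5 and 66.0 CPM, of which the formative knockout value is an approximation. Hdac1 was picked out after its values were seen. In the formative knockout column as deposited, which includes the shared library, it stood at 46.1 CPM.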
